A study of Ovis aries with 7 samples.

Results

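The cannabinoid receptor gene CNR1 and the genes of 5 enzymes that make or break down its ligands (DAGLA, DAGLB, MGLL, NAPEPLD and FAAH) were followed through the nuclei of the sheep striatum. The 6 genes were chosen by name, and all 6 were found among the 26479 annotated features. Single nuclei were prepared from the anterior striatum of 12 sheep, all 5 years old, and sequenced as 7 libraries. The OVT73 group, 6 sheep in 3 libraries of 2 sheep each, carried a full-length human huntingtin (HTT) cDNA with an expanded polyglutamine tract under a segment of the human HTT promoter, as a model of Huntington's disease (HD). The control group, 6 sheep without the transgene, gave 2 libraries of 2 sheep (control 3 and 4) and 2 libraries of 1 sheep (control 1 and 2). OVT73 is a single transgenic line, and the pooled animals were not separated here, so the library is the unit of replication.

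Endocannabinoids are lipid messengers that neurons and glia make on demand from membrane phospholipids. CNR1 encodes the CB1 receptor, a G-protein-coupled receptor that sits mostly on nerve terminals and lowers transmitter release. Its ligand 2-arachidonoylglycerol (2-AG) is released by the diacylglycerol lipases DAGLA and DAGLB and removed mainly by monoacylglycerol lipase, MGLL. The other main ligand, anandamide, is released by the phospholipase NAPEPLD and hydrolysed by fatty acid amide hydrolase, FAAH. In the striatum CB1 is known from the GABAergic medium spiny neurons (MSNs) and from interneurons, and its decline is a long-known feature of HD tissue.

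After quality control and doublet removal 32599 nuclei were kept, 17439 from OVT73 and 15160 from control libraries. Over all barcodes, before quality control, library totals were 27760110 to 70473426 unique molecular identifiers (UMIs, each 1 captured transcript) in OVT73 and 20887378 to 27704528 in control. In the nuclei kept they were 26020719 to 65941721 in OVT73 and 19302522 to 25449755 in control. Clustering gave 28 clusters, and 30103 nuclei (92.3%) fell into 13 classes named from marker genes. The 6 genes took no part in the clustering, and none of them was among the variable genes when allowed. DRD1 was not among the symbols used here, so the D1 class rested on TAC1, EBF1, PDYN and ISL1, each raised there, and the D2 class on DRD2, PENK, ADORA2A, GPR6 and HS3ST4. MSN-like and interneuron-like nuclei were deep (medians of 14936 to 23199 UMIs per nucleus) and the other classes shallow (1166 to 3595.5), so levels are given as CPM, the UMIs of a gene summed over a class in 1 library and scaled to the total UMIs of that class there. Between 2 and 20 cell barcodes were shared by any pair of libraries. CPM values are compared between classes for 1 gene at a time, not between genes.

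CNR1 was found mainly in neurons. Among the 9 classes with at least 10 nuclei in every library its level was highest in PV/Th interneuron-like nuclei, the GABAergic cells that hold parvalbumin or tyrosine hydroxylase, at 14.6 ± 8.62 CPM (SD, n = 7 libraries). The lowest library there was at 5.81, the median at 12.02 and the highest at 27.8 CPM, from 62 UMIs in 281 nuclei. In D1 MSN-like nuclei, of the direct pathway, CNR1 stood at 7.42 ± 2.45 CPM (SD, n = 7), with a lowest, median and highest library of 3.77, 8.76 and 8.97. In D2 MSN-like nuclei, of the indirect pathway, it stood at 7.64 ± 2.73 CPM (SD, n = 7), from 3.19 through 9.07 to 10.5. The SST/NPY interneuron-like nuclei, only 108 in all and at least 8 per library, held 21.1 ± 9.88 CPM (SD, n = 7) and were described without a test. Eccentric MSN-like nuclei, marked by OTOF and FOXP2, had 8 CNR1 UMIs in 319 nuclei, or 1.33 ± 0.917 CPM (SD, n = 7). The 58 cholinergic-like nuclei, described without a test, held 3 CNR1 UMIs, a mean of 36.1% of the D1 and D2 MSN-like level. The glial and neuroblast-like classes lay between 0.212 and 1.34 CPM, and CNR1 was not seen in 82 endothelial-like nuclei, which allows a share of nuclei with a UMI of up to 3.66%.

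In CNR1 the break in the order of classes came below the D1 and D2 MSN-like nuclei, with the eccentric MSN-like nuclei beneath it. The level in D1 MSN-like nuclei was above that in oligodendrocyte-like nuclei, the next class down, in 7 of 7 libraries (exact sign-flip permutation test on log2(CPM + 1), two-sided, p = 0.0156, the smallest that 7 libraries can give). After adjustment over the 8 neighbouring pairs of classes this p was 0.125, so that no single pair could pass 0.05. An edgeR fit over all 9 classes, added after the data were seen, put the same gap at 2.72 on the log2 scale (SE 0.23, adjusted p = 5.4e-17) and the gap from PV/Th interneuron-like down to D2 MSN-like nuclei at 0.57 (SE 0.23, adjusted p = 0.0322). PV/Th interneuron-like nuclei were above D2 MSN-like nuclei in 6 of 7 libraries. Below D1 MSN-like nuclei came oligodendrocyte-like, eccentric MSN-like, astrocyte-like, microglia-like, OPC-like (oligodendrocyte precursor) and neuroblast-like nuclei, where no neighbouring pair passed either test. These classes held 38, 8, 9, 5, 5 and 1 CNR1 UMIs in that order. That is too few for either test to show that their levels were alike. Over all 6 genes and 48 neighbouring pairs, none passed after adjustment by the sign-flip test (smallest adjusted p = 0.0625 in the exact permutation test), 11 had an unadjusted p under 0.05, and edgeR passed 14.

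**Figure D1:**
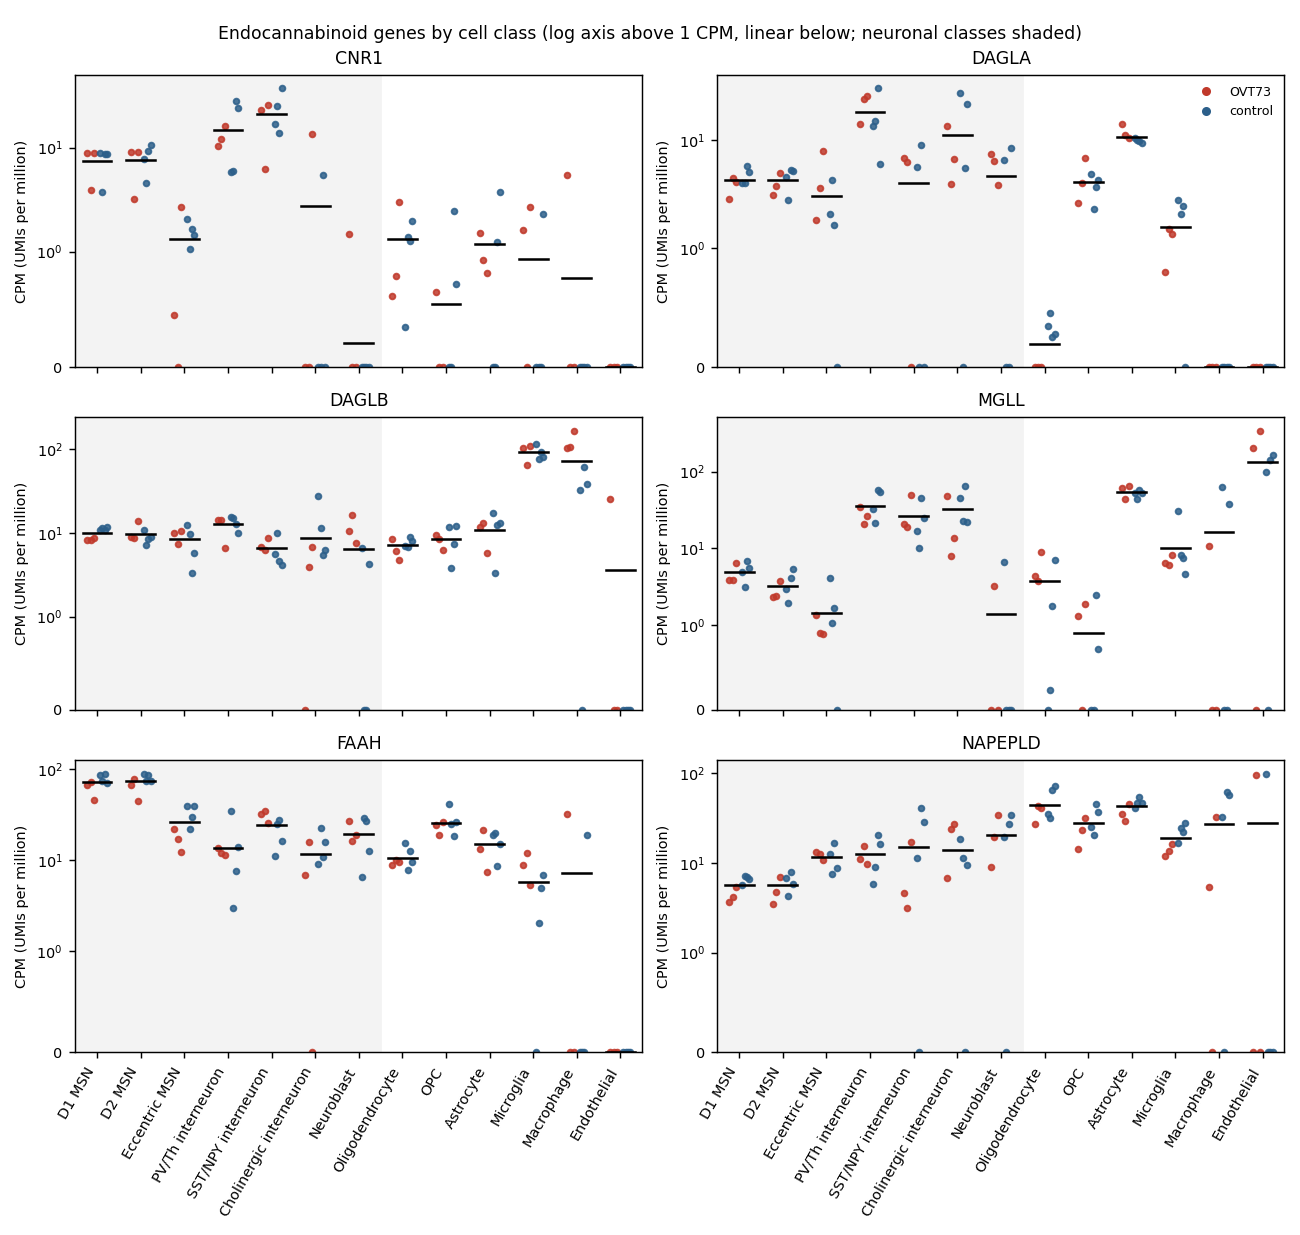
Level of each of the 6 genes in the 13 named classes, in CPM on an axis that is linear below 1 and logarithmic above; each point is 1 library and the black bar is the mean of 7 libraries, with the neuronal classes shaded. FAAH is highest in D1 and D2 MSN-like nuclei (72.0 and 73.5 CPM), DAGLB in microglia-like nuclei (90.9 CPM), and NAPEPLD in oligodendrocyte-like and astrocyte-like nuclei (44.6 and 42.4 CPM).

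The synthetic enzymes of 2-AG were placed in different cells. DAGLA, the lipase known for the 2-AG that acts at synapses, was highest in PV/Th interneuron-like nuclei at 18.5 ± 8.55 CPM (SD, n = 7), from 6.04 to 30.4 with a median of 15.1. Of the tested classes astrocyte-like nuclei came next at 10.8 ± 1.57 CPM (SD, n = 7), from 9.35 to 14.1. That spread was narrower than in PV/Th interneuron-like nuclei. The 58 cholinergic-like nuclei, described without a test, held 17 DAGLA UMIs, with libraries from 0 to 27.3 CPM. Their mean was 264% of the D1 and D2 MSN-like level, against 253% in astrocyte-like nuclei. edgeR put PV/Th interneuron-like above astrocyte-like nuclei by 0.76 on the log2 scale (SE 0.25, adjusted p = 0.00745), and 6 of 7 libraries had that order. D1 and D2 MSN-like, neuroblast-like, OPC-like and eccentric MSN-like nuclei formed a middle group between 3.05 and 4.67 CPM. No neighbouring pair within it passed either test, with only 11 DAGLA UMIs in neuroblast-like and 23 in eccentric MSN-like nuclei. DAGLA was close to the limit of counting in oligodendrocyte-like nuclei, where 15134 nuclei held 5 UMIs (0.191 ± 0.190 CPM, SD, n = 7).

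DAGLB, the second diacylglycerol lipase, known as the main form in microglia and macrophages, was set apart in microglia-like nuclei. Its level there was 90.9 ± 18.5 CPM (SD, n = 7), and the libraries ran from 63.6 through a median of 90.8 to 114. In macrophage-like nuclei, only 157 and described without a test, it was 71.8 ± 55.5 CPM (SD, n = 7, 31 UMIs). In the other 11 classes its mean lay between 3.61 and 12.6 CPM. The next tested class, PV/Th interneuron-like nuclei at 12.6 ± 3.25 CPM (SD, n = 7), was 7.21-fold below microglia-like nuclei, in 7 of 7 libraries (edgeR, log2 difference 2.55, SE 0.20, adjusted p = 9.58e-18). Below that step none of the 7 neighbouring pairs passed either test.

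MGLL, which ends 2-AG signalling, was highest in astrocyte-like nuclei among the tested classes. Its level was 53.7 ± 8.22 CPM there (SD, n = 7), with libraries from 43.3 through 53.1 to 64.6. This class joined a cluster led by SLC1A2 (887 nuclei) and a cluster led by DTHD1 (1197 nuclei). With each nucleus thinned to 1000 UMIs, an MGLL UMI was held by 7.40% of nuclei in the former and 3.26% in the latter. In PV/Th interneuron-like nuclei that share was 3.35%. PV/Th interneuron-like nuclei followed at 35.5 ± 15.2 CPM (SD, n = 7), from 20.8 through 32.9 to 58.2. The gap between these classes was 0.57 on the log2 scale (edgeR, SE 0.25, adjusted p = 0.0408) and 5 of 7 libraries had that order. The step from PV/Th interneuron-like down to microglia-like nuclei (10.2 CPM) was larger, at 2.21 (edgeR, SE 0.36, adjusted p = 1.87e-07), and stood in 7 of 7 libraries. The other interneuron-like classes were also among the higher ones, at 26.5 ± 14.9 CPM in SST/NPY-like and 32.2 ± 21.2 CPM in the 58 cholinergic-like nuclei (SD, n = 7 each). MSN-like nuclei were low, at 4.92 ± 1.41 CPM in D1, 3.23 ± 1.20 in D2 and 1.43 ± 1.30 in eccentric nuclei (SD, n = 7 each). OPC-like nuclei were lowest at 0.908 ± 1.00 CPM. The 82 endothelial-like nuclei had a mean of 135 ± 119 CPM, but from 18 UMIs and with 2 libraries at 0.

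NAPEPLD, on the synthetic side of anandamide, was highest in glia. Its level was 44.6 ± 16.8 CPM in oligodendrocyte-like, 42.4 ± 8.52 in astrocyte-like and 28.0 ± 10.6 in OPC-like nuclei (SD, n = 7 each). Astrocyte-like nuclei were above OPC-like nuclei in 7 of 7 libraries (edgeR, log2 difference 0.39, SE 0.15, adjusted p = 0.0272). Oligodendrocyte-like nuclei were above astrocyte-like nuclei in only 3 of 7 libraries, although edgeR put them higher by 0.33 (SE 0.13, adjusted p = 0.0277). D1 and D2 MSN-like nuclei were lowest of the tested classes, at 5.65 ± 1.36 and 5.69 ± 1.59 CPM (SD, n = 7 each). Eccentric MSN-like nuclei held 11.6 ± 3.02 CPM (SD, n = 7), above D2 MSN-like nuclei in 7 of 7 libraries (edgeR, log2 difference 1.09, SE 0.20, adjusted p = 1.14e-05).

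FAAH, which hydrolyses anandamide, was highest in the MSN-like nuclei of both output pathways. Its level was 72.0 ± 14.2 CPM in D1 and 73.5 ± 14.7 CPM in D2 MSN-like nuclei (SD, n = 7 each), and 77.9% and 78.8% of these nuclei held at least 1 FAAH UMI. The lowest, median and highest libraries were 45.4, 72.8 and 89.0 CPM in D1 and 45.2, 74.8 and 89.2 CPM in D2. Eccentric MSN-like nuclei held 26.0 ± 10.4 CPM (SD, n = 7), below D1 in 7 of 7 libraries (edgeR, log2 difference 1.62, SE 0.16, adjusted p = 9.36e-14). OPC-like nuclei were at the same height as the eccentric nuclei, 25.9 ± 7.61 CPM (SD, n = 7), and that pair did not differ beyond its spread. Microglia-like nuclei were lowest of the tested classes at 5.74 ± 4.06 CPM (SD, n = 7), below oligodendrocyte-like nuclei at 10.5 ± 2.59 (edgeR, log2 difference 1.05, SE 0.30, adjusted p = 0.00154). FAAH was not seen in the 82 endothelial-like nuclei, which allows a share of nuclei with a UMI of up to 3.66%. The eccentric nuclei thus held less FAAH than D1 and more NAPEPLD than D2. For CNR1 they held 8 UMIs, at 1.33 CPM against 7.42 in D1. For that gene the 2 classes were not neighbours in the order, and no test of this pair is given here. The edgeR fit over all classes put CNR1 lower in eccentric MSN-like than in PV/Th interneuron-like nuclei by 3.33 on the log2 scale (SE 0.43, adjusted p = 1.38e-09).

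Transcripts of MSN marker genes were also counted in nuclei of other classes, which bears on low levels of CNR1 and FAAH. Whether those marker transcripts came from MSNs or from the counted nuclei themselves was not tested. The 10 MSN markers (RGS9, PDE10A and others, all 10 found) summed to 22202 to 25491 CPM in D1 and D2 MSN-like nuclei over the libraries. As a percentage of their MSN-like level the markers stood at 1.95% in microglia-like, 7.24% in oligodendrocyte-like, 8.67% in OPC-like, 10.8% in astrocyte-like, 23.9% in neuroblast-like and 82.0% in eccentric MSN-like nuclei. Over the same classes CNR1 stood at 12.5%, 17.7%, 7.28%, 15.7%, 2.82% and 17.7% of its MSN-like level. These CNR1 values rest on only 5, 38, 5, 9, 1 and 8 UMIs in the same order. They are too few to set CNR1 above or below the markers class by class. At least 1 CNR1 UMI was held by 17.0% of D1 MSN-like nuclei (median 22440 UMIs) and by 0.244% of oligodendrocyte-like nuclei (median 1767 UMIs). With each nucleus thinned to 1000 UMIs the shares were 0.785% and 0.144%. FAAH stood at 35.6% of its MSN-like level in OPC-like nuclei, above the markers' 8.67%, and at 7.88% in microglia-like nuclei. How much of the low CNR1 and FAAH signal outside neurons came from free RNA was not tested.

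**Figure D2:**
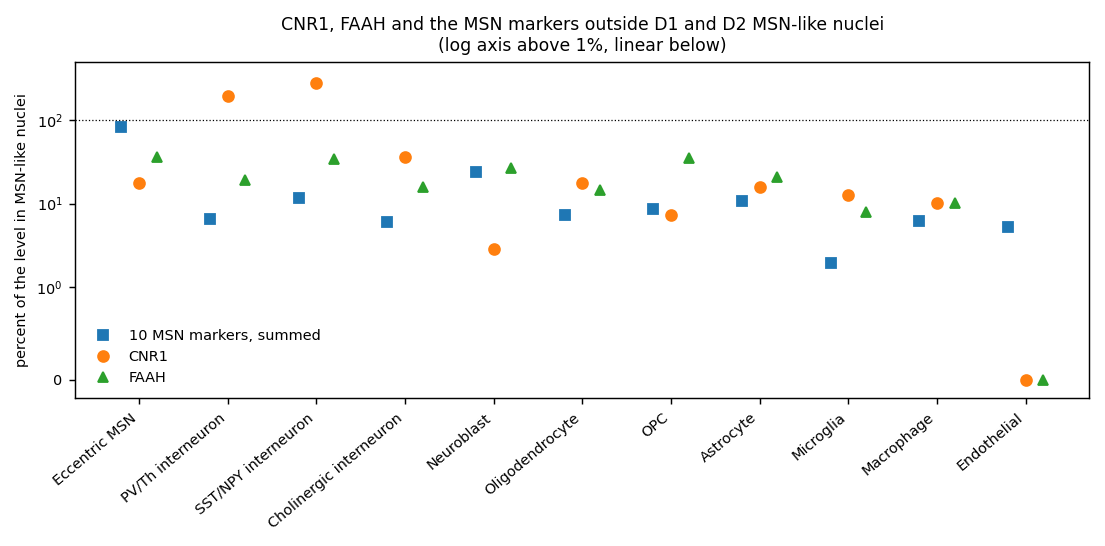
Level outside D1 and D2 MSN-like nuclei as a percentage of the level within them (axis linear near 0 and logarithmic above), for the sum of 10 MSN markers, CNR1 and FAAH, as means over 7 libraries. In OPC-like nuclei FAAH is at 35.6% where the markers are at 8.67%. In eccentric MSN-like nuclei CNR1 is at 17.7%, from 8 UMIs, where the markers are at 82.0%.

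The direct and indirect pathway neurons were compared within each library. MGLL was the member that differed. In D1 MSN-like nuclei it was at 3.82, 3.81 and 6.46 CPM in OVT73 1 to 3 and at 4.87, 3.11, 6.79 and 5.55 CPM in control 1 to 4. In D2 MSN-like nuclei the same libraries gave 2.28, 2.37 and 3.70 CPM in OVT73 and 2.96, 1.94, 4.03 and 5.32 CPM in control. Every library had less MGLL in D2 than in D1, and the smallest gap was in control 4. MGLL fell by 0.62 on the log2 scale from D1 to D2 (edgeR with the library as a block, SE 0.14, 95% interval -0.90 to -0.34, adjusted p = 0.00104; exact sign-flip permutation p = 0.0156). By the same fit 1505 of 11784 genes, or 12.8%, differed between D1 and D2, against 1 of the 6 members. In the 4 control libraries alone the MGLL difference was -0.48 (edgeR, adjusted p = 0.238), and 0 of 6 members passed.

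None of the other 5 members passed the test between the pathways. The D2 over D1 difference on the log2 scale was 0.01 for CNR1 (95% interval -0.19 to 0.21), -0.01 for DAGLA (-0.27 to 0.26) and -0.01 for DAGLB (-0.24 to 0.23). It was 0.03 for FAAH (-0.05 to 0.10) and 0.02 for NAPEPLD (-0.22 to 0.27). The interval was narrowest for FAAH, whose UMIs numbered 4880 for D1 and 4361 for D2. CNR1 moved with the library more than with the pathway. It was at 8.96, 3.88 and 8.81 CPM in D1 of OVT73 and at 8.97, 3.77, 8.76 and 8.76 CPM in D1 of control. In D2 it was at 9.07, 3.19 and 9.12 CPM in OVT73 and at 7.72, 4.54, 9.32 and 10.5 CPM in control. OVT73 2 and control 2 were low in both pathways, and the other 5 libraries lay between 7.72 and 10.5.

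**Figure D3:**
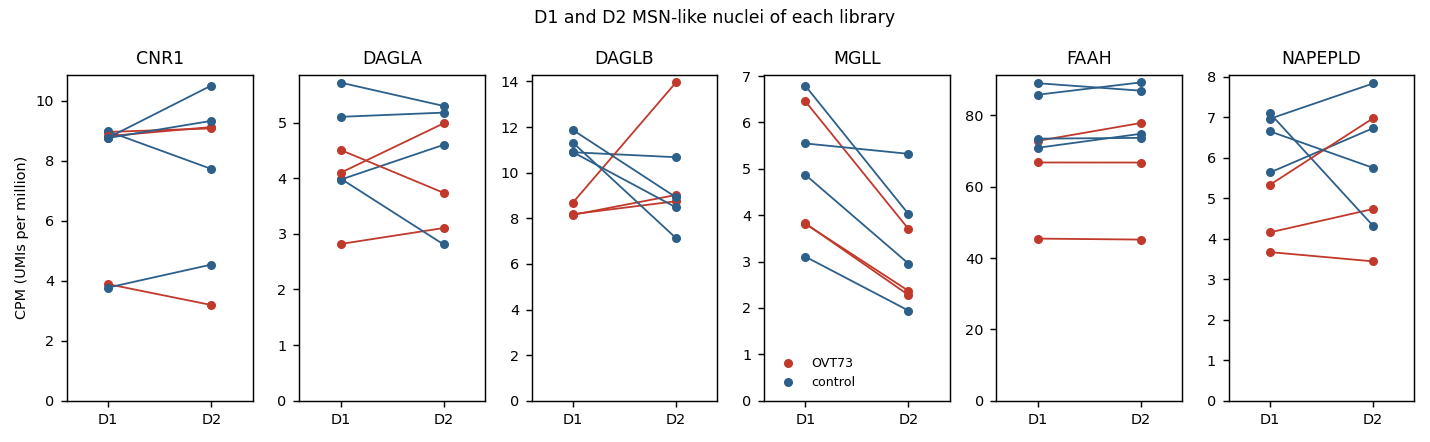
Level of each gene in D1 and D2 MSN-like nuclei, in CPM, with a line joining the values of 1 library and the groups told apart by colour. The MGLL lines fall in 7 of 7 libraries, while the CNR1 lines of OVT73 2 and control 2 run below those of the other 5 libraries in both classes.

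OVT73 was then compared with control within each of the 9 classes. Of the 54 pairs of a member and a class, 29 had enough counts to be tested, and none of the neuroblast-like pairs did. None of the 29 passed an adjusted p under 0.05 in edgeR, where 0.00259% of all 77240 pairs of gene and class did (2 pairs), nor in DESeq2. The smallest adjusted p of a member was 0.637 (edgeR). At an unadjusted p under 0.05 there was 1 pair by edgeR, FAAH in eccentric MSN-like nuclei, against 5.1% of all pairs. By DESeq2 there was also 1, and its share over all pairs was not computed. The groups did not overlap in normalised CPM in 3 of the 29 pairs, against 6.15% of all pairs. OVT73 was lower in 22 pairs and higher in 7, and the median of the 29 log2 fold changes was -0.20. Over all genes 52.9% of pairs were lower, with a median of -0.02. Values of different classes come from the same 7 libraries, so the pairs are not independent. Without TMM scaling, the factor that sets libraries on 1 scale, the median over all genes was itself -0.13 for each MSN pathway; 23 of the 29 pairs and 65.5% of all genes' pairs were then lower. The members' count moved with single libraries and with the filter. It was 18 of 30 without control 1, 18 of 30 without control 4 and 31 of 54 with no filter (60%, 60% and 57.4%), where all genes gave 52.0%, 51.9% and 50.7%. The remaining settings ran from 68.8% (22 of 32, pooled libraries only) to 80% (24 of 30, clustering resolution 0.5). All genes gave 51.1% and 53.5% there.

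**Figure D4:**
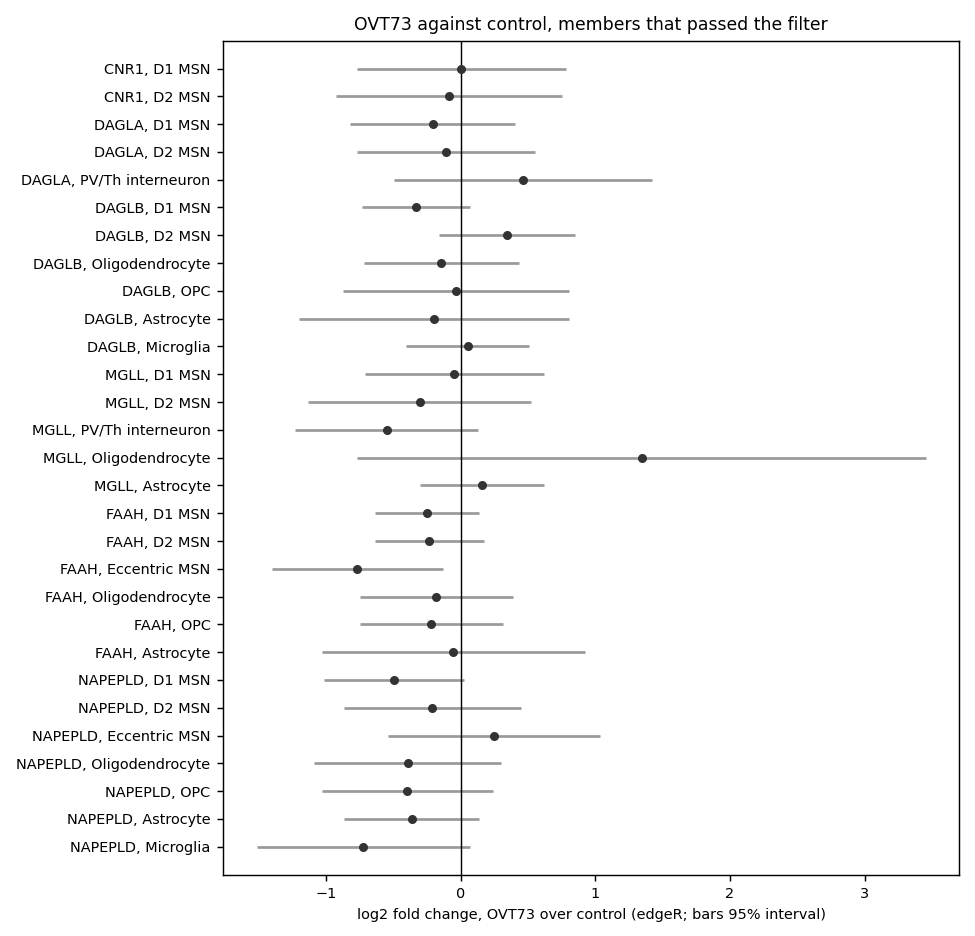
Log2 fold change of OVT73 over control for the 29 tested pairs of gene and class, with bars of the 95% interval from edgeR (3 OVT73 and 4 control libraries). 22 points lie below 0 and 7 above, and FAAH in eccentric MSN-like nuclei at -0.77 is the pair with an unadjusted p under 0.05.

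CNR1 could be tested in D1 and D2 MSN-like nuclei, with the library values given above. The OVT73 values overlapped the control values in both classes. The log2 fold change was 0.00 in D1 (SE 0.35, 95% interval -0.77 to 0.78; edgeR, adjusted p = 0.999) and -0.09 in D2 (SE 0.38, 95% interval -0.93 to 0.75; edgeR, adjusted p = 0.985). The sign of the D1 value turned with a single library: it was -0.22 without OVT73 1 and 0.30 without OVT73 2. In D2 it ran from -0.33 to 0.25 as single libraries were left out.

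On the synthetic side of 2-AG, DAGLB had log2 fold changes of opposite sign in the 2 pathways, neither past the adjusted threshold. In D1 MSN-like nuclei it was at 8.15, 8.18 and 8.69 CPM in OVT73 and at 10.9, 11.3, 10.9 and 11.9 CPM in control. All 3 OVT73 libraries lay below all 4 control libraries; groups without overlap were found for 5.37% of the 12306 genes tested in this class. With edgeR the log2 fold change was -0.33 (SE 0.18; edgeR, adjusted p = 0.938; exact permutation p = 0.0286, the smallest that 35 choices of 3 libraries allow). In D2 MSN-like nuclei DAGLB was at 9.02, 8.75 and 14.0 CPM in OVT73 and at 10.7, 7.13, 8.48 and 8.92 CPM in control, which overlap. That gave a log2 fold change of 0.35 (SE 0.23; edgeR, adjusted p = 0.903), and 0.14 without OVT73 3. With equal numbers of nuclei per library the D1 value was -0.15. The D2 minus D1 difference of DAGLB ran from 0.10 to 0.68 (log2) over the 3 OVT73 libraries. In the 4 control libraries it ran from -0.66 to -0.03. The mean difference between the groups was 0.67 (exact permutation test, p = 0.0571), which did not pass 0.05, and no other member had a p under 0.05 in this test. The share of all genes set apart in this way was not computed. In microglia-like nuclei, where its level was highest, DAGLB was at 103, 63.6 and 108 CPM in OVT73 and at 114, 76.1, 90.8 and 80.6 CPM in control, a log2 fold change of 0.05 (SE 0.21). The log2 fold change of DAGLA was -0.21 in D1 MSN-like (SE 0.28) and 0.46 in PV/Th interneuron-like nuclei (SE 0.46), within the spread between libraries. With 1 library left out it ran from -0.39 (without OVT73 2) to -0.022 (without OVT73 1) in the former and from 0.15 (without control 4) to 0.75 (without OVT73 1) in the latter.

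MGLL did not pass the test in any of its 5 tested classes. In astrocyte-like nuclei its level was 56.7 ± 11.4 CPM in OVT73 (SD, n = 3) and 51.4 ± 5.76 CPM in control (SD, n = 4), a log2 fold change of 0.16 (SE 0.21) that was 0.29 without OVT73 2 and -0.12 with equal numbers of nuclei. In PV/Th interneuron-like nuclei it was at 34.9, 20.8 and 26.0 CPM in OVT73 and at 32.9, 21.1, 58.2 and 54.3 CPM in control. Control 3 and 4 lay above the OVT73 values and control 1 and 2 among them, and the log2 fold change was -0.55 (SE 0.32; edgeR, adjusted p = 0.916), or -0.94 with the pooled libraries alone and -0.26 with equal numbers of nuclei. The largest log2 fold change of any member was that of MGLL in oligodendrocyte-like nuclei, at 1.34 (SE 0.92; edgeR, adjusted p = 0.882). There MGLL was at 4.33, 3.69 and 8.97 CPM in OVT73 and at 0, 0.228, 1.76 and 7.04 CPM in control, from 119 UMIs in all. Control 4 lay among the OVT73 values and the other control libraries below them. Without control 4 the log2 fold change was 2.99, and with the 5 pooled libraries alone it was 0.42.

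NAPEPLD was lower in OVT73 in 6 of its 7 tested classes, none past the adjusted threshold. In D1 MSN-like nuclei it was at 3.67, 4.16 and 5.34 CPM in OVT73 and at 5.64, 7.10, 6.97 and 6.66 CPM in control, without overlap. Groups without overlap were found for 5.37% of the 12306 genes tested in this class. On the log2 scale the change was -0.50 (SE 0.23; edgeR, adjusted p = 0.938; exact permutation p = 0.0571). In microglia-like nuclei it was at 12.02, 13.6 and 16.1 CPM in OVT73 and at 16.7, 24.7, 22.1 and 27.6 CPM in control, again without overlap but from 75 UMIs. This was a log2 fold change of -0.72 (SE 0.37, edgeR adjusted p = 0.998, exact permutation p = 0.0571). Over the 9 classes 6.15% of all pairs of gene and class had no overlap, and the share in microglia-like nuclei alone is not given here. In oligodendrocyte-like nuclei, its highest class, NAPEPLD was at 27.1, 42.4 and 40.7 CPM in OVT73 and at 34.8, 31.5, 64.2 and 71.2 CPM in control. Control 3 and 4, the pooled libraries, were high, and the single-sheep libraries control 1 and 2 lay among the OVT73 values. The log2 fold change was -0.39 (SE 0.31; edgeR, adjusted p = 0.882) over 7 libraries and -0.79 over the 5 pooled ones. OPC-like and astrocyte-like nuclei gave -0.40 (SE 0.30) and -0.36 (SE 0.23). With 1 library left out the OPC-like value ran from -0.64 (without OVT73 3) to -0.11 (without OVT73 1), and the oligodendrocyte-like value from -0.56 (without control 2) to -0.18 (without control 4).

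FAAH was lower in OVT73 in 6 of 6 tested classes, none with an adjusted p under 0.05. That count rested on single libraries: it was 3 of 6 without control 1, 5 of 6 without control 2 or without OVT73 3, and 4 of 6 with the 5 pooled libraries alone. In eccentric MSN-like nuclei it was at 22.2, 17.2 and 12.4 CPM in OVT73 and at 39.3, 22.3, 29.6 and 39.0 CPM in control, from 167 UMIs. OVT73 1 and control 2 met at the border, and after TMM scaling the groups overlapped. The log2 fold change was -0.77 (SE 0.30; edgeR, unadjusted p = 0.0211, adjusted p = 0.637; exact permutation p = 0.0857), in a class where 7.05% of genes had an unadjusted p under 0.05. In D1 MSN-like nuclei FAAH was at 66.8, 72.8 and 45.4 CPM in OVT73 and at 85.8, 73.4, 89.0 and 70.9 CPM in control. In D2 MSN-like nuclei it was at 66.8, 77.8 and 45.2 CPM in OVT73 and at 89.2, 73.7, 86.9 and 74.8 CPM in control. OVT73 3 was the lowest library in both pathways and the groups overlapped, with log2 fold changes of -0.25 (SE 0.17) and -0.24 (SE 0.18; edgeR, adjusted p = 0.938 and 0.907). Without OVT73 3 these log2 values were -0.053 and -0.028, and without OVT73 2 they were -0.41 and -0.44.

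The 25 pairs below the count filter were described only. DAGLA in astrocyte-like and oligodendrocyte-like nuclei and DAGLB in neuroblast-like nuclei were singled out after their values were seen, and no test is given for them. DAGLA in astrocyte-like nuclei was 11.97 ± 1.89 CPM in OVT73 (SD, n = 3) and 9.97 ± 0.520 CPM in control (SD, n = 4), from 83 UMIs. DAGLB in neuroblast-like nuclei was 11.4 ± 4.31 CPM in OVT73 (SD, n = 3) and 2.69 ± 3.24 CPM in control (SD, n = 4), from 16 UMIs. In oligodendrocyte-like nuclei the 5 DAGLA UMIs all came from control libraries, too few for a fold change.

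Summed over whole libraries, as a bulk sample would be, 0 of 6 members passed an adjusted p under 0.05 in edgeR, where 0% of 16061 genes did. DESeq2 also called none of the members. None had an unadjusted p under 0.05 by either tool, where edgeR gave 5.39% of all genes. At this level fewer cells of a class and less RNA per cell cannot be told apart. The log2 fold change was -0.00 for CNR1 (SE 0.32) and -0.11 for FAAH (SE 0.21). NAPEPLD was at 9.96, 11.8 and 15.4 CPM in OVT73 and at 13.02, 14.6, 25.7 and 20.4 CPM in control. The groups overlapped, with control 3 and 4 highest, and the log2 fold change was -0.46 (SE 0.22; edgeR, adjusted p = 0.831).

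Of 16 further endocannabinoid genes 15 were found. In MSN-like nuclei PLCB1 was at 3171 CPM and PLCB4 at 79.2 CPM, both phospholipases C that supply diacylglycerol, and SGIP1, a protein known to keep CB1 at the membrane, was at 1035 CPM. CNR2 and GPR55, receptors for related ligands, had no UMI in any nucleus, and TRPV1 had 17 in the named classes. FABP7, a fatty acid carrier of glia, was highest in astrocyte-like nuclei at 57.8 CPM, and NAAA, an acid amidase, in microglia-like nuclei at 74.6 CPM. Between the MSN pathways PLCB1 fell by 0.18 from D1 to D2 (SE 0.02, adjusted p = 3.91e-08) and PLCB4 fell by 0.16 (SE 0.04, adjusted p = 0.00225), both on the log2 scale and each lower in D2 in 7 of 7 libraries. In the control libraries alone PLCB4 no longer passed (-0.14; edgeR, adjusted p = 0.146). FABP7 rose by 0.87 (SE 0.14, adjusted p = 1.12e-05, all from edgeR with the library as a block), higher in 7 of 7 libraries. FABP7 stood at 4.05 ± 1.88 CPM in D1 and 7.25 ± 1.43 CPM in D2 (SD, n = 7 each). None of the other further genes that could be tested passed an adjusted p under 0.05 between the pathways. By the same fit 12.8% of 11784 genes did.

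Between OVT73 and control 80 of the 135 pairs of these genes with a class could be tested, and 0 passed the adjusted threshold in edgeR or DESeq2. OVT73 was lower in 37 pairs and higher in 43. By edgeR 3 of the 80 pairs had an unadjusted p under 0.05, against 5.1% of all pairs of gene and class. By DESeq2 4 did, and its share over all pairs was not computed. The groups did not overlap in normalised CPM in 4 of the 80 pairs, against 6.15% of all pairs. SGIP1 in D2 MSN-like nuclei was at 1122, 1062 and 1100 CPM in OVT73 and at 1004, 956, 940 and 1068 CPM in control, which overlap. After TMM scaling they did not overlap, and the log2 fold change was 0.25 (SE 0.10; edgeR, unadjusted p = 0.0287, adjusted p = 0.903), where 4.49% of genes in the class had an unadjusted p under 0.05. PLCB1 in OPC-like nuclei was 2826 ± 85.8 CPM in OVT73 (SD, n = 3) and 2426 ± 119 CPM in control (SD, n = 4), a log2 fold change of 0.31 (SE 0.10; edgeR, unadjusted p = 0.00784, adjusted p = 0.675), against 6.76% of genes. FABP7 in astrocyte-like nuclei was at 33.6, 42.8 and 42.5 CPM in OVT73 and at 106, 50.0, 64.3 and 65.5 CPM in control. The log2 fold change was -0.84 (SE 0.26; edgeR, unadjusted p = 0.00621, adjusted p = 1.0), against 4.53% of genes, and all OVT73 libraries were below all control libraries. With equal numbers of nuclei the value was -0.34.

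The genes whose pattern over the 13 classes was most like that of each member were found among 12020 genes by the correlation of mean log2(CPM + 1). The points share the same 7 libraries and differ in depth, so these values are a description. CNR1 was most like ADRA1A, an adrenergic receptor (r = 0.911 over 13 classes), followed at ranks 4 and 5 by DOC2B and UMAD1 and at ranks 2 and 3 by genes without a symbol. DAGLA was most like SLC1A4 (r = 0.912), with HSPA4L, PRPF40B and TNFRSF25 also in its first 5. DAGLB was most like BTK, a kinase of B cells and myeloid cells (r = 0.989), and CARD9, VARS1 and CIITA were also in its first 5. For MGLL the correlations were lower, with VCL first (r = 0.871), then HAGHL, PNPLA2, IFRD1 and ACADVL. FAAH was most like TBC1D32 (r = 0.971), with ATP6V1C2, TMC2 and STEAP2 also in its first 5. NAPEPLD was most like GPSM2 (r = 0.946), then TP53BP2, AASS, QKI and MYO1E. Among the members themselves r was 0.54 between CNR1 and FAAH and -0.63 between FAAH and MGLL, over the same 13 classes.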

How the data were processed

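Nuclei from 12 sheep were sequenced as 7 libraries by 10x Genomics 3′ chemistry. The authors deposited UMI counts per gene and barcode, made with Cell Ranger 7.0.0 and STAR 2.7.2a per the submitters' processing notes, on the Rambouillet sheep genome; whether intronic reads were counted is not given in the sources used here. Groups and pooling were read from the sample labels.

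Nuclei with 200 to 7500 genes and at most 5% mitochondrial UMIs were kept (33957 of 35272 barcodes), and the 4% with the highest scrublet score (1358; scrublet's own call was 508) were removed. With scanpy 1.11.5, 3000 variable genes without the endocannabinoid genes were chosen and reduced to 30 components. The components were corrected by library with the Harmony method. Clusters came from the Louvain method (igraph 0.11.9, 20 neighbours, resolution 1). A class name needed at least 3 listed markers raised by more than 1 log2 unit. D1 and D2 MSN needed fewer of their own markers but also 3 general MSN markers. Neuronal subtypes also needed an own marker among the leading genes. Clusters with markers of a rival class or over 30% doublets were not named. In all, 11 of 28 stayed unnamed, so class sizes rest on rebuilt names. UMIs were summed per library and class and tested with edgeR 4.0.16 (quasi-likelihood, robust, TMM, filterByExpr; R 4.3.3), with Benjamini-Hochberg adjustment over all genes of a class; standard errors are the log2 fold change divided by the square root of F, and 95% intervals use the t distribution with edgeR's degrees of freedom. Exact permutation tests ran over the 35 choices of 3 of 7 libraries or the sign flips of 7 libraries, two-sided. The tests were tested on simulated data. With 3 and 4 libraries, precision is set by the number of libraries; intervals on UMI shares cover counting error only.

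The members and gene lists were chosen with earlier results of these data known. All 6 members were named in every class; of the further list, those with an unadjusted p under 0.05 and the 3 with the highest CPM in MSN-like nuclei; and, for likeness, the 5 nearest genes among those with 10 CPM in a class, of which 1 is not reported here. NAAA, ABHD4, PLA2G4E, the genes with few UMIs and the D2 against D1 calls of the further list were added after seeing values. Alternatives were DESeq2 1.42.0, no TMM, no filter, doublets kept, equal numbers of nuclei, pooled libraries only, clustering with the members, resolution 0.5, control libraries only, all barcodes, thinned nuclei and each library left out; edgeR over all classes was chosen after seeing the data.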

Additional observations from a re-analysis of the deposited data

Results flagged for a closer look

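In 59 groups of 4 control libraries checked for a library far from the others, 4 were found; chance gives about 1 in 20 for values that vary freely, which does not apply to groups with 3 libraries at 0. CNR1 in D1 MSN-like nuclei was at 3.77 CPM in control 2 and at 8.76 to 8.97 in the other control libraries. MGLL in microglia-like nuclei was at 30.6 CPM in control 1 and at 4.60 to 8.23 in the others. MGLL in neuroblast-like nuclei was at 6.52 CPM in control 1 and 0 in the others, and CNR1 in microglia-like nuclei was at 2.30 CPM in control 4 and 0 in the others, so that any UMI in 1 library would have set it apart.

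The D2 minus D1 difference of DAGLB was above 0 in 3 of 3 OVT73 libraries and below 0 in 4 of 4 control libraries, a difference of 0.67 between the groups on the log2 scale (exact permutation test, p = 0.0571, 6 members tested). Among the further endocannabinoid genes, ABHD4 (0.85) and PLA2G4E (-0.35) had a smaller p in that exact permutation test (0.0286 each). The share of all genes set apart in this way was not computed.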

How the results depend on the processing

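Over 33 named results and their 428 alternatives, 394 kept the direction and the side of the threshold, 32 changed sign and 2 lost the call; no result gained one. No member passed an adjusted p under 0.05 between OVT73 and control in any setting (edgeR or DESeq2, smallest adjusted p 0.366). At an unadjusted p under 0.05 the number ran from 0 of 30 pairs (resolution 0.5) to 4 of 32 (pooled libraries only). It was 1 of 29 in the main setting. The share over all genes is given for the main setting only (5.1% by edgeR), so the other counts have no background beside them. With control libraries only, the number of members that differed between D2 and D1 was 0 in place of 1, MGLL being -0.48 and PLCB4 -0.14 on the log2 scale (edgeR, adjusted p = 0.238 and 0.146). The number of neighbouring pairs of classes that differed was 0 by the sign-flip test and 14 by edgeR over all classes. With 7 libraries the exact sign-flip permutation test cannot give a p below 0.0156. For 1 pair in 8 at that floor the adjusted p is 0.125, so the count of 0 is limited by the test itself. Whether anything else set the counts apart was not tested.

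Values near 0 changed sign. CNR1 in D1 was -0.093 without TMM, -0.022 with doublets kept and -0.17 with pooled libraries only; CNR1 in the whole library was 0.00103 over all barcodes; MGLL in astrocyte-like nuclei was -0.12 with equal numbers of nuclei. D2 over D1 was 0.014 for DAGLB and -0.018 for NAPEPLD with doublets kept, and -0.084 for NAPEPLD with control libraries only. With 1 library left out, CNR1 ran from -0.22 to 0.30 in D1, -0.33 to 0.25 in D2 and -0.19 to 0.27 in the whole library; DAGLB in microglia-like nuclei from -0.070 to 0.22; and FAAH in the whole library from -0.33 to 0.12. D2 over D1 ran from -0.034 to 0.052 for CNR1, -0.053 to 0.053 for DAGLA, -0.12 to 0.062 for DAGLB and -0.039 to 0.097 for NAPEPLD. The unadjusted edgeR p of FAAH in eccentric MSN-like nuclei ran from 0.00823 to 0.0881; at resolution 0.5 no eccentric class formed. No paired analysis was possible because OVT73 and control replicate numbers are only names; D1 and D2 were paired by library. Depth limits CNR1 outside neurons, where classes held 0 to 38 UMIs.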

Other observations

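Some of the clusters left unnamed held the members too. A cluster of 802 nuclei with MSN markers and a median of 1237.5 UMIs held FAAH at 72.4 ± 28.5 CPM (SD, n = 7, 109 UMIs). A cluster of 421 nuclei led by CPNE4 held CNR1 at 6.05 ± 2.67 CPM and MGLL at 21.6 ± 20.1 CPM (SD, n = 7 each). A cluster of 376 nuclei with markers of both SST/NPY and cholinergic interneurons held CNR1 at 21.3 ± 21.6 CPM and NAPEPLD at 38.0 ± 21.3 CPM (SD, n = 7 each), the former from 16 UMIs.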
